A study of Mus musculus with 12 samples.

Results

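The genes described here encode the proteins of the cytosolic ribosome, in RNA-seq of mouse bone marrow neutrophils. Genes were chosen by symbol: Rpl or Rps followed by a number and at most 1 closing letter a, l or x, together with Rplp0, Rplp1, Rplp2, Rpsa and Fau. Numbered copies of predicted genes, names ending in -ps and the Rps6k kinases were left out. This gave 81 of the 37310 genes of the count table, 33 of the small and 48 of the large subunit. After a filter on low counts 79 of them were among the 12917 genes tested, and Rpl10l and Rpl39l were not. Rpl24, Rpl41 and Rpl32l were not analysed here.

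The libraries formed 4 groups of 3, named here as labelled: Control and Runx1KO, each incubated for 2 h in vehicle or in 100 ng/mL LPS, the lipopolysaccharide of bacterial outer membranes. All came from C57BL/6 mice, and the labels describe a sort for CD11b and Ly6G that removed cells with Siglec F or the antigen encoded by Adgre1. The design text states that Control material was pooled marrow of 1 Runx1f/f mouse and 1 Runx1f/- mouse, the second with a germline mutation of 1 allele, and names LKS- cells, a progenitor fraction, where the labels name sorted neutrophils. Sources used here do not state age, the Cre driver or the deleted part of Runx1. Runx1 itself, counted over the whole gene, was at 43.9 ± 10.7 CPM (depth-scaled read counts; SD, n = 3) in Control vehicle and 68.1 ± 7.46 in Runx1KO vehicle, and at 36.4 ± 12.9 and 56.9 ± 12.5 after LPS, so its counts were not low in the libraries labelled Runx1KO and do not check the labels.

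A ribosome joins a small subunit, which reads the messenger RNA, to a large subunit, which forms the peptide bonds, and each subunit is built from ribosomal RNA and many proteins made in near equal numbers. Many ribosomal protein mRNAs begin with a run of pyrimidines, the 5′ terminal oligopyrimidine (TOP) motif, through which mTOR signalling adjusts their translation. Mature neutrophils are short-lived cells that do not divide and are known for low ribosome production compared with their precursors. Ribosomal protein genes have many processed pseudogenes, copies of the mRNA inserted elsewhere in the genome, which can take reads from the gene.

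The sequences around the annotated start are shown first, because the TOP motif is the feature these genes are known to share. Each line gives 40 bases before the start and the first 20 from it, 5′ to 3′, with runs of 8 or more C or T in capitals, from RefSeq on GRCm38.p6. Rpl7a, Rpl15, Fau and Rps6 have a run over the start base, and Rps19, Rps28 and Rps4x have none in the window. The positions are chr2:26910767-26910826 (plus strand) for Rpl7a, chr14:18270967-18271026 (minus strand) for Rpl15, chr19:6057907-6057966 (plus strand) for Fau, chr4:86857348-86857407 (minus strand) for Rps6, chr7:24884552-24884611 (plus strand) for Rps19, chr17:33824543-33824602 (minus strand) for Rps28 and chrX:102189372-102189431 (minus strand) for Rps4x.
Rpl7a: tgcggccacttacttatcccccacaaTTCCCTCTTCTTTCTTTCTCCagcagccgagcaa
Rpl15: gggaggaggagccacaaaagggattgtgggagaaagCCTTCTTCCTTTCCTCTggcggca
Fau: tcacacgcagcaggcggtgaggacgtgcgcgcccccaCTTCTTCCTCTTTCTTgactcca
Rps6: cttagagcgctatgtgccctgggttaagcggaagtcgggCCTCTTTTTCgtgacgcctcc
Rps19: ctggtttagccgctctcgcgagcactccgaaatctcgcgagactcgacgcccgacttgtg
Rps28: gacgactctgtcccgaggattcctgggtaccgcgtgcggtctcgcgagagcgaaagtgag
Rps4x: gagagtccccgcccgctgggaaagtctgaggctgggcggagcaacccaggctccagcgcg

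RefSeq listed a start for 59 of the 81 genes. In 32 of them (54.2%) a run of 8 or more C or T lay in the window, on the strand that matches the mRNA. The share was 24.0% of 27025 genes with a listed start. A run covered the start base in 16 of the 59 (27.1%), compared with 3.81% of the 27025. The listed start can lie some bases from the main one, and the wider window was chosen after the sequences were seen. A match describes these letters only, and the lack of one says only that these letters are not in this window.

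The ribosomal protein genes took 0.205 to 0.320% of the gene counts of a library, whose totals were 19023610 to 26225169. The share was 0.258, 0.205 and 0.269% in Control vehicle libraries 1, 2 and 3 and 0.248, 0.214 and 0.228% in Control LPS. In Runx1KO it was 0.241, 0.292 and 0.320% with vehicle and 0.275, 0.299 and 0.283% with LPS. With vehicle the genotypes overlapped, and after LPS all 3 Runx1KO shares lay above all 3 Control shares. Group means were 0.244 ± 0.0341% (SD, n = 3), 0.230 ± 0.0171%, 0.284 ± 0.0400% and 0.286 ± 0.0121% in the same order of groups. Within each genotype the mean share after LPS differed from that with vehicle by less than the SD of the vehicle group.

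**Figure D1:**
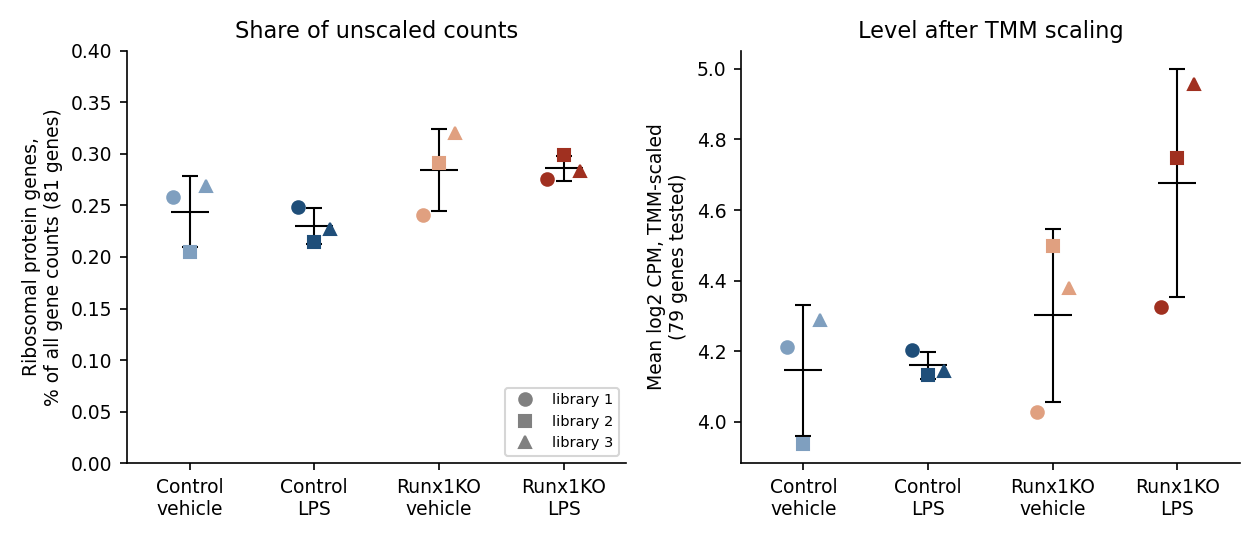
Left, share of all gene counts taken by the 81 ribosomal protein genes in each library (%); right, mean log2 CPM of the 79 genes tested, with TMM-scaled library sizes; symbols give the library number and bars the mean ± SD of 3 libraries. The unscaled shares of the 2 Runx1KO groups have means of 0.284 and 0.286%, while the scaled level rises from 4.30 to 4.68 and is highest in Runx1KO LPS library 3.

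Pseudogene copies took more counts than the genes. In the annotation used here (GENCODE M21), 586 pseudogenes of the table shared at least 1 stretch of 50 bases with the coding sequence of a ribosomal protein gene, and they took 1.27 to 1.38 counts for each count of a ribosomal protein gene. Of the 81 genes, 74 had such a copy in the table. The median gene had 42.6% of its 50-base windows in no other annotated gene, 50 genes had under 50% and 3 shared no window at all. The sources used here do not say how the authors' counting split reads between a gene and its copies, so absolute levels of single genes are uncertain. With the genes and their copies added together, the share was 0.568 ± 0.0891% with vehicle and 0.538 ± 0.0434% with LPS in Control (SD, n = 3), against 0.669 ± 0.0963% and 0.671 ± 0.0431% in Runx1KO.

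Levels of single genes spread widely although their proteins are used in near equal numbers. In CPM per 1000 coding bases the 77 coding genes tested ran from 2.04 to 456, with a median of 51.3. The lowest was Rpl3l, a relative of Rpl3 described below, and the next was Rpl36a at 3.97. Among the highest were Rps9 at 456, Rps27 at 224, Rps14 at 212 and Rps3 at 183 on this scale. Rps3 lines the mRNA entry channel, and Rps14 is the gene linked to the 5q- syndrome in people. Rps27 had 1.35% unique windows and Rps3 97.0%, so a high level went with either extreme of shared sequence. Spearman's rho between unique share and level was 0.246 over the 77 genes, a description across genes that share the same libraries. The 5 genes with the most counts held 30.4% of the counts of all 81.

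**Figure D2:**
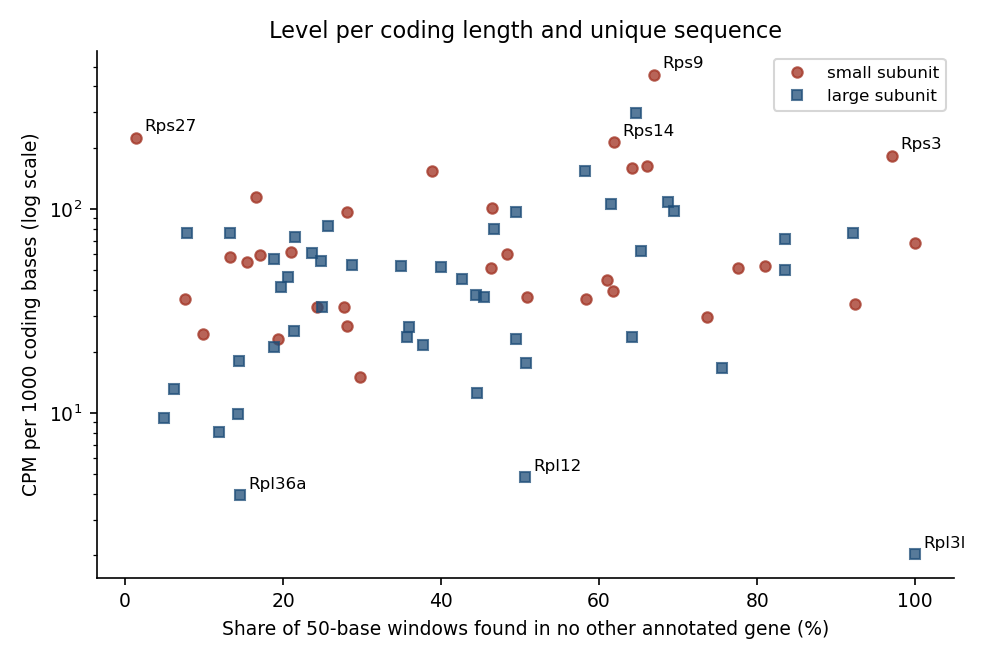
Mean level of the 77 coding ribosomal protein genes tested, in CPM per 1000 coding bases (log axis), against the share of their 50-base windows found in no other annotated gene (%), by subunit. Rps9 is highest at 456 and Rpl3l lowest at 2.04, and levels of every size occur at low and at high unique shares.

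The lowest levels per 1000 coding bases were those of 3 relatives of ubiquitous genes. Rpl10l, a testis relative of Rpl10, had 0 counts in all 12 libraries. Rpl39l, a testis relative of Rpl39, had 14 counts in all, at most 6 in a library. Rpl3l, which replaces Rpl3 in heart and skeletal muscle, had 680 counts over the 12 libraries. The genes that varied least between libraries were Rpl7, Rpl4 and Rpsa, with an SD of log2 CPM of 0.22, 0.18 and 0.18, and those that varied most were Rps4l, Rpl3l and Rps28, with 0.74, 0.71 and 0.63.

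The first comparison asked what LPS did in Control cells, and no ribosomal protein gene passed the test. In the edgeR quasi-likelihood test with Benjamini-Hochberg adjustment, 0 of 79 passed an adjusted p of 0.05, as did 0% of all genes tested. At an unadjusted p under 0.05 there were 0 ribosomal protein genes against 0.604% of all genes, and DESeq2 and limma-voom called 0 of the 79. Fold changes centred on 0: 44 were positive and 35 negative, with a median log2 fold change of 0.017 against -0.020 for all genes. LPS libraries lay above all vehicle libraries for 5 genes (2.84% of all genes did so) and below for 0 (2.32%). Rpl11, Rps4l, Rps9 and Rps19 were among them.

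Rps19, a small-subunit protein most often mutated in Diamond-Blackfan anaemia, was at 36.5, 30.0 and 33.6 CPM in Control vehicle libraries and at 37.7, 39.5 and 41.0 CPM in Control LPS libraries. The LPS values were the higher in every library, by little, with a log2 fold change of 0.24 (SE 0.22). Rpl11 had 0.18 and Rpl27a 0.17, the next highest values among the more abundant genes. Rpl10a had -0.30, Rps7 -0.29 and Rpl5 -0.23, the lowest among the more abundant genes. Rplp0, the base of the stalk that recruits elongation factors, had 0.067, Rpl13a 0.012, Rps3 0.041, Rps4x -0.046 and Rps27l -0.033, all within 1 SE of 0.

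In Runx1KO cells LPS gave positive values for nearly every gene, none past the threshold. Of the 79, 78 had a positive log2 fold change, with a median of 0.39 against 0.028 for all genes. None passed the adjusted threshold (0% of all genes did; DESeq2 called 1 gene of all tested and 0 ribosomal protein genes). At an unadjusted p under 0.05 there were 4 (5.06%), near the 5.23% of all genes. Groups did not overlap for 6 genes, all higher with LPS: Rps6, Rps7, Rps12, Rps21, Rps26 and Rplp1 (3.51% of all genes were higher without overlap and 3.2% lower).

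The size of this shift depended on the scaling and on single libraries. The TMM factor of Runx1KO LPS library 3 was 0.699, against 0.895 to 1.20 in the other 11 libraries, and its summed CPM of 10 inflammatory genes was 77887 against 1513 to 33494 in the others. In the Control genotype the vehicle libraries 1, 2 and 3 summed to 16763, 13528 and 2692 and those given LPS to 22524, 21107 and 26658. The Runx1KO sums were 17039, 19013 and 1513 without LPS, against 16316, 33494 and 77887 with it. Runx1KO LPS library 1 thus lay below Runx1KO vehicle libraries 1 and 2, and the vehicle libraries numbered 3 were the lowest of all. Without TMM scaling the median of all genes was -0.28 and that of the ribosomal protein genes 0.034, with 47 of 79 positive, so the ribosomal protein genes stood 0.31 above all genes, against 0.36 with TMM, while single genes changed sign. Without Runx1KO LPS library 3 the median was 0.21, and 1 gene had an unadjusted p under 0.05 (2.62% of all genes). Without Runx1KO LPS library 1 the median was 0.55, and 33 of 79 had an unadjusted p under 0.05 (16.3% of all genes). With any other library or number left out that count was 0 to 7. It was 7 without Runx1KO vehicle library 2 (6.73% of all genes) and 0 without the libraries numbered 2 (3.18%).

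Rplp1, a stalk protein, was at 13.3, 17.8 and 16.1 CPM in Runx1KO vehicle libraries and 22.5, 23.4 and 27.1 CPM in Runx1KO LPS libraries, without overlap. Its log2 fold change was 0.63 (SE 0.21), the adjusted p 0.87. Rps12, a small-subunit protein, had 8.34, 9.35 and 9.78 CPM in the former and 13.3, 12.2 and 16.0 CPM in the latter, again without overlap, and a log2 fold change of 0.59. The highest values among the more abundant genes were 0.84 for Rps28, 0.72 for Rpl39 and 0.66 for Rps29, 3 of the shortest proteins of the ribosome. The lowest were -0.087 for Rpl10a, 0.072 for Rpl5 and 0.13 for Rpl7. Rplp0 had 0.27, Rpl13a 0.32, Rps3 0.27, Rps19 0.40, Rpl11 0.24, Rps27l 0.37 and Rps4x 0.34.

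The difference between the LPS responses of the genotypes was tested directly, and no ribosomal protein gene passed (0 of 79, 0% of all genes; 1 at an unadjusted p under 0.05, Rps7, against 0.596% of all genes; DESeq2 and limma-voom called 0). The difference, Runx1KO response minus Control response, was positive for 78 of 79 with a median of 0.37 against 0.048 for all genes. Without TMM scaling the median was 0.14, and without the libraries numbered 3 it was 0.13. Rps28 had 1.00, Rpl39 0.84 and Rps29 0.78, the highest of the more abundant genes, and Rpl27 0.022, Rpl11 0.061 and Rpsa 0.074, the lowest.

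With vehicle, Runx1KO and Control cells differed in no ribosomal protein gene by the test. The test called 123 genes (0.952%) and 0 of 79 ribosomal protein genes; with the library number as a block it called 315 genes and again 0 of the 79, as did DESeq2 and limma-voom. Positive values were found for 67 of 79, with a median of 0.17 against 0.0025. Runx1KO libraries lay above all Control libraries for 4 genes, Rplp0, Rpl11, Rps19 and Rpl3l (5.42% of all genes), and below for 1, Rps4l (7.82%). At an unadjusted p under 0.05 there were 2 (2.53%) against 7.79%, Rps4l and Rpl3l.

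This comparison turned on the library number. The mean difference over the 79 genes was -0.19 between libraries numbered 1, 0.56 between those numbered 2 and 0.092 between those numbered 3, with 15, 77 and 55 genes positive. Without the libraries numbered 2 the median was 0.0073. Xist had 0 counts in the libraries numbered 2 and 900 to 1624 in the others, and the Y-linked Ddx3y had 2729 to 4285 counts in the former and at most 1 in the latter. The part of sex in these differences was not tested.

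**Figure D3:**
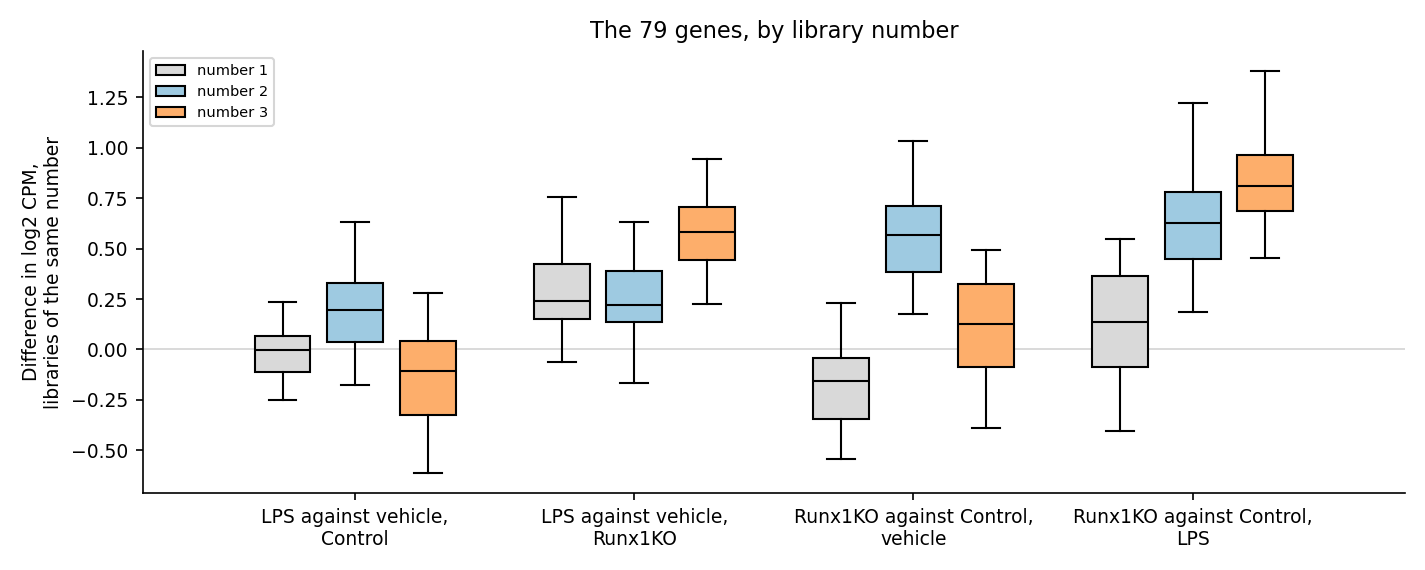
Differences in log2 CPM of the 79 ribosomal protein genes between libraries of the same number, in the 4 comparisons; boxes span the quartiles with the median as a line and whiskers the 5th to 95th percentile of genes. Number 2 is high in Runx1KO against Control with vehicle (mean 0.56) and number 1 is low (mean -0.19), while after LPS all 3 means are positive (0.12, 0.61 and 0.81).

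Rpl11, which with Rpl5 carries the 5S RNA into the ribosome and can bind Mdm2, was at 9.41, 8.39 and 9.14 CPM in Control vehicle and 9.67, 12.5 and 15.0 CPM in Runx1KO vehicle. The groups did not overlap, by a narrow gap at library 1, and the log2 fold change was 0.46 (SE 0.25). Rps27a, a ubiquitin fusion, had 0.47 and Rpl37a 0.46, the other high values, and their groups overlapped. Rpl39 had -0.14, Rps9 -0.10 and Rps7 -0.064, the lowest of the more abundant genes. Rplp0 had 0.28, Rpl13a 0.32, Rps3 0.17, Rps19 0.45, Rpl5 0.30, Rps27l 0.026 and Rps4x 0.30.

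After LPS nearly all ribosomal protein genes had positive values in Runx1KO against Control, and none passed the test. The log2 fold change was above 0 for 78 of 79, with a median of 0.56 against 0.031 for all genes. The test called 119 genes (0.921%) and 0 of the 79, the lowest adjusted p being 0.097 for Rps4l; with the library number as a block it called 302 genes and 0 of the 79. At an unadjusted p under 0.05 there were 35 (44.3%), against 10.1% of all genes. Runx1KO libraries lay above all Control libraries for 37 of 79 (6.51% of all genes) and below for 1, Rps4l (6.76%). The 79 genes were measured in the same 6 libraries and their values are not independent of each other.

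The shift was present under each scaling and unequal between numbers. The median was 0.40 without TMM scaling, where that of all genes was -0.082, and 0.57 with factors computed without these genes. Between libraries of the same number the mean difference was 0.12, 0.61 and 0.81 for numbers 1, 2 and 3, with 53, 78 and 77 of 79 positive. Leaving out Runx1KO LPS library 3 gave a median of 0.39 and leaving out Runx1KO LPS library 1 gave 0.73. The count of 35 genes at an unadjusted p under 0.05 depended on the libraries. It was 10 without Runx1KO LPS library 3 (8.57% of all genes) and 60 without Runx1KO LPS library 1 (17.4%). Without Runx1KO LPS library 2 it was 18 (8.65% of all genes). Without Control LPS library 1, 2 or 3 it was 20, 17 and 20 (8.25, 7.48 and 7.97% of all genes). Without any 1 vehicle library it was 27 to 34 (9.39 to 10.6% of all genes). Without the libraries numbered 1, 2 or 3 it was 50, 3 and 1, against 12.1, 5.2 and 6.72% of all genes. Control libraries served in both comparisons of treatment and genotype, so the 5 sets of values are not independent of each other.

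**Figure D4:**
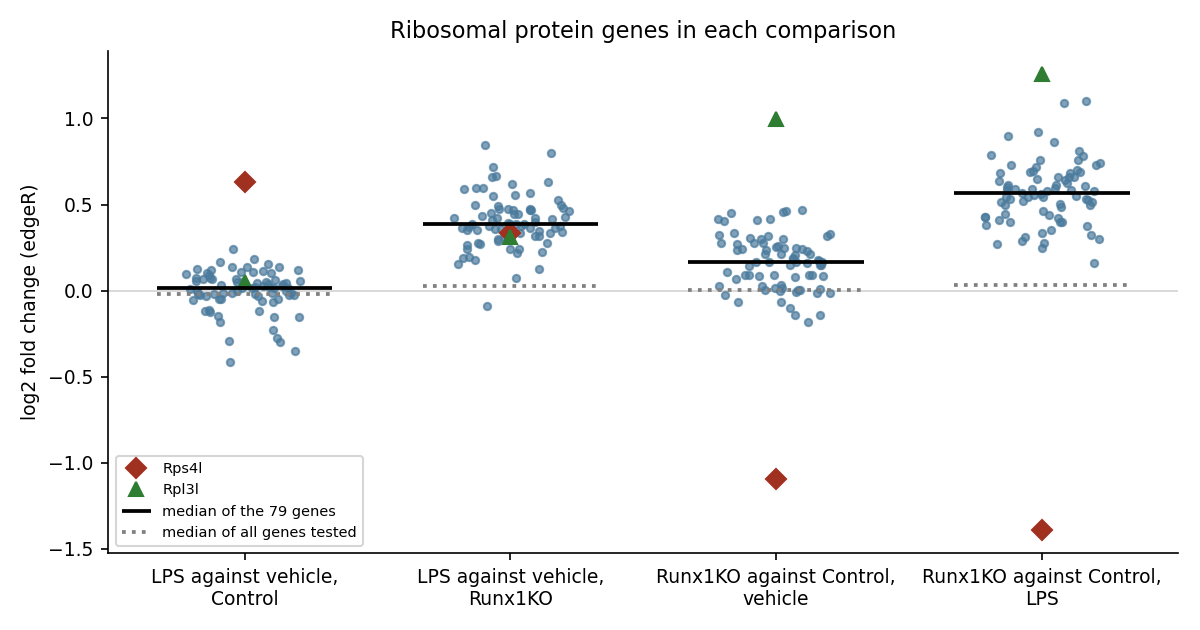
log2 fold changes (edgeR) of the 79 ribosomal protein genes tested in each of 4 comparisons, 1 point a gene; solid lines give their median and dotted lines the median of all genes tested. The medians are 0.017, 0.39, 0.17 and 0.56 from left to right, and Rps4l lies at -1.10 and -1.39 in the comparisons of the genotypes.

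Rps29, a short zinc-binding protein of the small subunit, was at 19.3, 20.1 and 18.7 CPM in Control LPS and 25.0, 47.0 and 52.8 CPM in Runx1KO LPS. All 3 Runx1KO values were higher, library 1 by the least, and the log2 fold change was 1.10 (SE 0.32, adjusted p 0.18). Rps28 was at 4.71, 5.16 and 5.55 CPM in Control LPS and 5.18, 12.9 and 14.7 CPM in Runx1KO LPS. Its groups overlapped through library 1, and the log2 fold change was 1.09 (SE 0.43). Rpl37a had 0.92, the next highest, without overlap.

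Rps6, the ribosomal protein phosphorylated by S6 kinases, was at 38.5, 31.3 and 32.8 CPM in Control LPS and 51.4, 53.2 and 56.3 CPM in Runx1KO LPS. The groups were well apart and each narrow, and the log2 fold change was 0.65 (SE 0.20, adjusted p 0.22). DESeq2 called Rps6 and Rps4l here, 2 of the 79, beside 401 of the 12917 genes tested. Rplp0 was at 129, 136 and 128 CPM in Control LPS and 165, 167 and 218 CPM in Runx1KO LPS, without overlap, with a log2 fold change of 0.48 (SE 0.21). Rpl13a had 0.62, Rps19 0.61, Rpl5 0.60 and Rpl11 0.52, all without overlap, while Rps3 had 0.40 and Rps27l 0.43 with overlap.

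The lowest values among the more abundant genes were 0.16 for Rpsa, the laminin receptor protein, 0.25 for Rpl4 and 0.27 for Rps9. Rpsa was at 40.8, 46.7 and 48.7 CPM in Control LPS and 45.3, 49.0 and 58.0 CPM in Runx1KO LPS, so the groups overlapped. Rps9, the gene with the highest level per coding length, was at 257, 268 and 273 CPM in Control LPS and 241, 328 and 392 CPM in Runx1KO LPS. Library 1 was the lowest of all 6 and the other Runx1KO libraries were the highest.

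Divided by role or sequence, the genes had medians of 0.34 to 0.70 after LPS. The median was 0.58 for the 33 small-subunit and 0.55 for the 46 large-subunit genes tested. All 15 genes linked to Diamond-Blackfan anaemia were positive with a median of 0.68, as were the 4 stalk genes with 0.58 and the 4 X-linked genes with 0.70. Genes with at least 50% unique windows had a median of 0.54 (n = 29) and those with less 0.58 (n = 50), and the 6 tested without a pseudogene copy in the table had 0.34. With a pyrimidine run in the window, as in Rpl7a and Rpl15 above, the median was 0.61 (n = 31), and without one, as in Rps19 and Rps28, 0.56 (n = 26). These divisions were not tested against each other.

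Rps4l was the 1 gene of the 79 with a negative value after LPS. Rps4l (ENSMUSG00000063171.3, chromosome 6) is annotated as a transcribed processed pseudogene, a copy of the X-linked Rps4x (ENSMUSG00000031320.8). It had 93, 70 and 86 counts in Control vehicle and 38, 46 and 36 in Runx1KO vehicle, and 92, 89 and 147 against 42, 36 and 48 after LPS. Every Runx1KO library was below every Control library. Across treatments the gap was narrow in CPM, with 2.70 in Runx1KO LPS library 3 and 2.80 in Control vehicle library 2. The log2 fold change was -1.10 (SE 0.34, adjusted p 0.24) with vehicle and -1.39 (SE 0.34, adjusted p 0.097) after LPS.

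Rps4x itself had positive values. It was at 20.045, 24.3 and 19.3 CPM in Control LPS and 28.4, 35.0 and 39.2 CPM in Runx1KO LPS, without overlap, with a log2 fold change of 0.69 (SE 0.23, adjusted p 0.26). The genes are 80.5% identical over 788 aligned bases and share 0% of 50-base windows. The stretch of 120 bases with the most differences, positions 484 to 603 counted from the first base of the start codon in Rps4x and of the transcript in Rps4l, is shown because it bears on whether reads can tell the genes apart, with the 35 differing bases in capitals (GENCODE M21 transcripts).
Rps4x: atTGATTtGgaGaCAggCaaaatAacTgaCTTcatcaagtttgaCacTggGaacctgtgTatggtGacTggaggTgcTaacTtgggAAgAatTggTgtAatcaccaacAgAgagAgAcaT
Rps4l: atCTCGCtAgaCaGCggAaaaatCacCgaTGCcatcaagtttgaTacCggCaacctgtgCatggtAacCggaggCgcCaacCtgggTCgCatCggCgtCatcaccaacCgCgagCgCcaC
Rps4l overlaps Tmtc1, which lies on the opposite strand. Tmtc1 was at 0 CPM in 11 libraries and at 0.042 CPM in Control vehicle library 1.

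Rpl3l (ENSMUSG00000002500.8, chromosome 17) had the highest fold change of the 79 in both comparisons of the genotypes. It had 47, 21 and 42 counts in Control vehicle and 61, 72 and 100 in Runx1KO vehicle, and 43, 29 and 24 against 108, 62 and 71 after LPS. Every Runx1KO library was above every Control library. The log2 fold change was 1.00 (SE 0.40, adjusted p 0.50) with vehicle and 1.26 (SE 0.41, adjusted p 0.26) after LPS. Rpl3l shares no 50-base window with another gene. Rpl3, its ubiquitous relative, was at 22.3, 14.1 and 17.4 CPM in Control LPS and 46.2, 24.0 and 22.2 CPM in Runx1KO LPS, and its groups overlapped.

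Because these counts separated the genotypes in both treatments, the genotype difference averaged over treatments was computed as well, chosen after the values were seen. It called 527 genes (4.08%) and 2 of 79 ribosomal protein genes, Rps4l with -1.24 (SE 0.24, adjusted p 0.012) and Rpl3l with 1.13 (SE 0.29, adjusted p 0.049). Vehicle and LPS libraries of a number may come from the same mouse. With those libraries summed, 0 of 79 were called, the adjusted p being 0.092 for Rps4l and 0.25 for Rpl3l. Leaving out the libraries of any 1 number also left 0 called. The Rps4l call was kept without any single library, and the Rpl3l call was lost without any 1 of 11 of the 12 libraries.

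**Figure D5:**
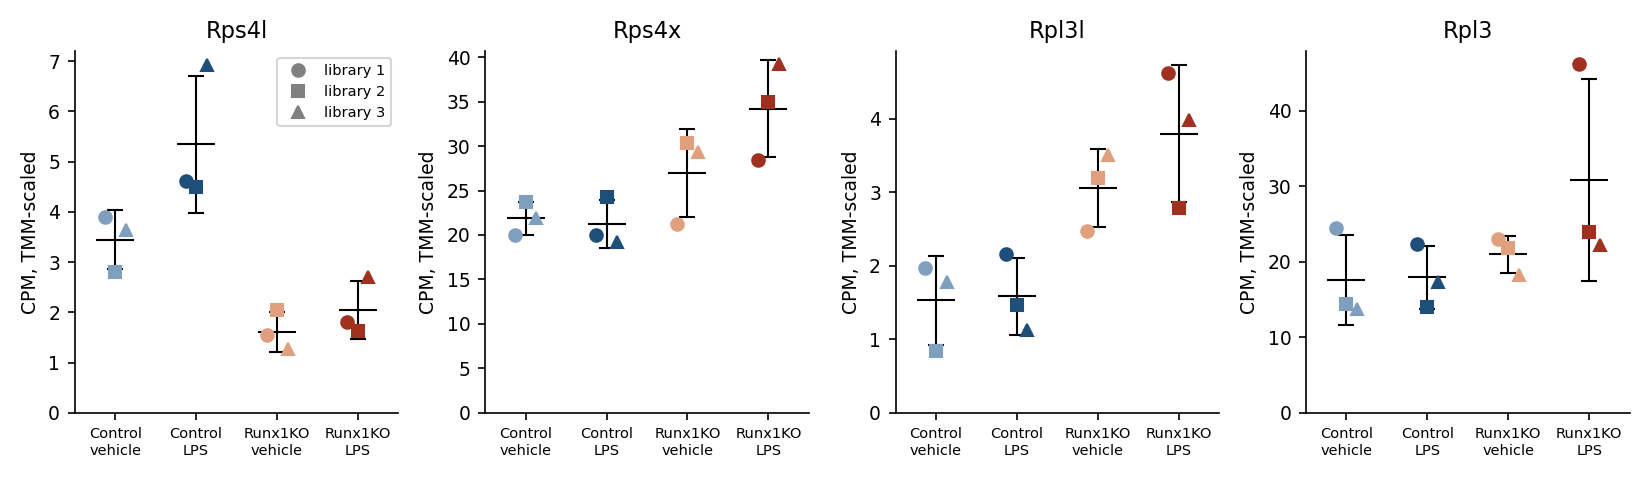
CPM (TMM-scaled) of Rps4l, Rps4x, Rpl3l and Rpl3 in each library; symbols give the library number and bars the mean ± SD of 3 libraries. Rps4l is lower and Rpl3l higher in all 6 Runx1KO libraries than in all 6 Control libraries.

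Other lists of translation genes had lower medians than the ribosomal protein genes after LPS, and 0 genes of each list passed the test. Of 19 translation elongation and other TOP genes, 16 were higher in Runx1KO LPS than in Control LPS, with a median of 0.27. Rack1, which sits on the small subunit, had 0.51, Eef1a1 0.50, Tpt1 0.48 and Eef2 0.14, none past the threshold. Of 76 mitochondrial ribosomal protein genes 42 were positive (median 0.085), of 35 ribosome biogenesis genes 19 (0.042) and of 26 genes of initiation control 10 (-0.046). All 13 mitochondrially encoded mRNAs were positive, with a median of 0.33. For LPS in Runx1KO all 13 were positive too, with a median of 0.53 against 0.39 for the ribosomal protein genes. In the difference of responses all 13 were positive, with a median of 0.50 against 0.37. With vehicle 3 of the 13 were positive in Runx1KO against Control (median -0.15), and for LPS in Control 7 were (0.025). Myc, a regulator of ribosomal genes, had 0.56 (adjusted p 0.85) in Runx1KO against Control after LPS and 2.62 (adjusted p 0.87) for LPS in Runx1KO.

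Marker levels of other cells differed between the libraries as well. The summed CPM of 5 progenitor markers was 7.88, 37.7 and 55.0 in Runx1KO LPS libraries 1, 2 and 3 and 10.7, 11.2 and 17.3 in Control LPS. With vehicle the sums were 12.2 to 19.1 in Runx1KO and 8.31 to 14.5 in Control. The order of the libraries was the same as for the mean ribosomal protein level in Runx1KO LPS and in Control vehicle, and differed from it in Control LPS and Runx1KO vehicle. Of 6 promyelocyte and myelocyte markers the sum was 131 to 164 in Runx1KO LPS and 112 to 178 in Control LPS. These sums overlapped although single markers differed in sign. In Runx1KO against Control after LPS 4 of the 6 were positive, with a median log2 fold change of 0.79, and 0 were called. Fcnb went the other way, with -1.04 (adjusted p 0.44 in edgeR). Of 5 erythroid markers the sum was 215 to 1713 in Runx1KO LPS and 199 to 683 in Control LPS, and of 5 platelet markers 25.0 to 38.3 and 2.33 to 6.41. Of 6 B lineage markers it was 12.0 to 20.2 and 20.8 to 50.8 and of 6 eosinophil markers 8.98 to 14.1 and 10.4 to 31.6.

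Some of these sums rested on 1 gene. Among the eosinophil markers Ear2 was at 0.172 ± 0.260 CPM in Runx1KO LPS and 11.3 ± 7.43 in Control LPS (SD, n = 3). Of the 6 eosinophil markers 1 was positive after LPS, Ccr3, with a log2 fold change of 1.40 (adjusted p 0.54 in edgeR). Of 6 T and NK markers the sum was 4.88 to 7.25 in Runx1KO LPS and 37.8 to 52.2 in Control LPS, and most of the latter was Cd3d, at 40.1 ± 6.43 CPM (SD, n = 3) there and 1.62 ± 0.240 in Runx1KO LPS. Cd3d fell by 4.63 on the log2 scale (adjusted p 6.2e-05 in edgeR), while 2 of the 3 markers tested had positive values, with a median of 0.16. Of 7 monocyte and macrophage markers the sum was 954 to 2941 and 1581 to 1938, with 5 of 7 positive and a median of 0.73. Ly6c2, the most abundant of them in Control, had the other sign, at 883 ± 81.6 CPM in Runx1KO LPS and 1455 ± 23.2 in Control LPS (SD, n = 3; adjusted p 0.28 in edgeR). The 7 mature neutrophil markers summed to 86441 to 101130 and 88114 to 108940, with 1 of 7 positive and a median of -0.42. Ly6g, the antigen of the sort, was at 351, 156 and 158 CPM in Runx1KO LPS and 471, 395 and 400 in Control LPS (adjusted p 0.32), and averaged over treatments it fell by 1.25 on the log2 scale (adjusted p 0.0094). No marker of these lists was at 0 throughout a group after LPS. The part of other cells in the ribosomal protein levels was not tested. In bulk samples fewer cells of a type and less RNA per cell cannot be told apart.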

How the data were processed

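The authors deposited whole-number read counts per gene, 1 column a library, with STAR 2.6.0a, mm9 and featureCounts named per the submitters' processing notes. The sources used here do not state the annotation release, the strand setting or the handling of multiply aligned reads. Columns were matched to samples by name and 0 were left out. Symbols came from a gene name table; coding sequences and neighbours from GENCODE M21, whose GRCm38 build differs from mm9, so no coordinates of the counts are given.

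Counts were filtered (filterByExpr), TMM-scaled and tested with edgeR 4.0.16 (R 4.3.3) quasi-likelihood in 1 model of 4 groups, with Benjamini-Hochberg adjustment over all 12917 genes and a threshold of 0.05. The script was tested on simulated data. CPM used TMM-scaled library sizes, and log2 CPM a prior count of 2. Alternatives were DESeq2 1.42.0, limma 3.58.1 (voom), other scalings, no filter, a replicate block, added copy counts and left-out libraries. No label ties libraries of a group to separate mice. By Xist and Ddx3y, library 2 of each group differed in sex from libraries 1 and 3, so each group held material of more than 1 mouse. Whether libraries 1 and 3 came from separate mice is not known. The p-values measure library spread, part of which may be technical. Intervals were not given, and depth limits genes with few counts.

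The genes and lists were chosen with earlier results of these data known. Named were, per comparison, called genes, the 3 highest and 3 lowest fold changes among genes averaging log2 CPM 2 or more, and 8 set genes (Rplp0, Rpl13a, Rps3, Rps19, Rpl5, Rpl11, Rps27l, Rps4x); over all libraries, the 5 highest per coding length, genes failing the filter and the 3 most and 3 least variable. Other genes were named after their values were seen. The values of 2 genes that the rule names are not reported here. The averaged genotype comparison, the summed libraries, the block with voom, the split at 50% unique windows, the matching of copies and the start window were chosen after seeing the data.

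Same-numbered libraries deviated together (correlations of 0.37 to 0.67 over genes) in Control and in both genotype comparisons. In Runx1KO LPS against vehicle the correlations were 0.31 and 0.54 for numbers 1 and 2 and 0.0058 for number 3. Libraries of unlike number had -0.53 to 0.22 there. These correlations do not show that the samples are paired, and what libraries of a number share was not tested.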

Additional observations from a re-analysis of the deposited data

How the results depend on the processing

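The count of ribosomal protein genes called in the 5 main comparisons was 0 under all alternatives, except Runx1KO against Control after LPS with DESeq2 (2) and with the replicate block and limma-voom (1, Rps4l); limma-voom with the block was added after seeing the data. The replicate block changed no other call of these genes there. Genes called overall moved with the test: with vehicle 386 (DESeq2), 315 (replicate block) and 394 (block and limma-voom), after LPS 401, 302 and 347, and 1 with DESeq2 for LPS in Runx1KO. With libraries or numbers left out they ranged from 1 to 171 with vehicle and from 3 to 135 after LPS. The median of the ribosomal protein genes without TMM scaling was 0.034 for LPS in Runx1KO and 0.14 for the difference of responses, which ranged from 0.13 to 0.54 with libraries or numbers left out. In the averaged genotype comparison 997 (DESeq2), 1034 (replicate block), 1130 (block and limma-voom) and 176 (summed libraries) genes were called, and 120 to 758 with libraries left out. Of the ribosomal protein genes 1 of 79 was called without TMM scaling (439 of 12917 genes) and 1 of 80 without the filter (612 of 21644). DESeq2 called 11 of 79 (997 of 12917 genes) and the replicate block 6 (1034 of 12917). The block with limma-voom called 8 (1130 genes) and the summed libraries 0 of 79 (176 of 13421). With libraries left out 0 to 7 were called, the 7 of 79 without Runx1KO LPS library 1 (758 of 13312 genes). The share of counts with -ps copies added was 0.421 and 0.398% in Control (vehicle, LPS) and 0.496 and 0.493% in Runx1KO. On TMM-scaled library sizes the share of the 81 genes alone was 0.331% in Runx1KO LPS.

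Of 2160 recomputed values of named genes 82 changed sign, in 31 of 90 results, none of them called; the cause was not tested. Without TMM scaling, LPS in Control gave -0.12 for Rpl13a, -0.082 for Rpl3l, -0.052 for Rplp0 and -0.081 for Rps3. LPS in Runx1KO gave -0.12 for Rpl11, -0.046 for Rpl13a, -0.26 for Rpl5, -0.22 for Rpl7, -0.072 for Rplp0, -0.029 for Rps27l, -0.099 for Rps3, -0.010 for Rps4l and -0.0069 for Rps4x. The difference of responses gave -0.17 for Rpl11, -0.21 for Rpl27, -0.019 for Rplp0, -0.052 for Rps19, -0.018 for Rps3 and -0.16 for Rpsa, and Rps7 gave 0.0090 in the genotype comparison with vehicle. Rps27l in Control turned to 0.012 with limma-voom and 0.0073 with block and limma-voom, and to -0.020 with the replicate block between genotypes with vehicle. Rpl10a in Runx1KO turned to 0.17 with -ps copies added, and the Rpl27 difference to -0.024 without the filter.

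With libraries left out, LPS in Control ranged from -0.097 to 0.18 for Rpl13a, -0.042 to 0.43 for Rpl27a, -0.24 to 0.37 for Rpl3l, -0.25 to 0.21 for Rps27l and -0.16 to 0.027 for Rps4x. LPS in Runx1KO ranged from -0.25 to 0.078 for Rpl10a, -0.019 to 0.53 for Rpl3l, -0.044 to 0.22 for Rpl5, -0.022 to 0.25 for Rpl7 and -0.091 to 0.68 for Rps4l. Genotypes with vehicle ranged from -0.36 to 0.057 for Rpl39, -0.28 to 0.30 for Rps27l, -0.18 to 0.087 for Rps7 and -0.29 to 0.13 for Rps9, and averaged over treatments from -0.011 to 0.26 for Rps9. The difference of responses ranged from -0.16 to 0.24 for Rpl11, -0.19 to 0.20 for Rpl27, -0.035 to 0.72 for Rpl3l, -0.56 to 0.069 for Rps4l and -0.083 to 0.16 for Rpsa.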
